A study of Oryzias latipes with 2 samples.

Results

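Rab GTPases are small switch proteins of membrane traffic, and 59 of the 23601 features measured in medaka skin carry a Rab name. The members were all features whose symbol is rab followed by a number and, where present, letters and a further number, with the case of the letters ignored. The genes rab27a, RAB27B and RAB38 were left out. Of the 59 members, 52 are Rab GTPase genes by name and 7 are accessory genes that the same pattern takes, namely RAB11FIP2, RAB11FIP3, rab3gap1, rab3gap2, rab3ip, RAB3IL1 and rab5if. Of all features, 13522 carry a symbol, so a Rab gene listed by identifier alone is not analysed here.

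A Rab protein in its GTP-bound state sits on the membrane of a particular compartment and recruits effectors such as motors, tethers and sorting proteins; exchange factors switch it on and GTPase-activating proteins switch it off. Different Rabs are assigned to the endoplasmic reticulum and Golgi, early endosomes, recycling endosomes, late endosomes and lysosomes, or secretory vesicles. Pigment cells of fish store pigment or light-scattering material in organelles, of which some but not all are lysosome-related. In mammals RAB32 and RAB38 deliver enzymes to the melanosome, the best known lysosome-related organelle.

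Skin and scales came from adult wild-type male and female medaka (Oryzias latipes) of the HdrR inbred line, with the Southern phenotype per the labels. The tissue was dissociated for 1 h at 37 °C with the protease TrypLE and stained with the nuclear dye Draq5 before a flow sort, which enriched pigment cells by GFP and mCherry signals per the series' design text. Loadings aimed at 10000 and 1000 cells on the 10x Genomics platform, and sequencing of the libraries of transcript 3′ ends aimed at about 25000 reads per cell. The 2 libraries, run 1 and run 2, form 1 group and nothing says that they came from separate animals, so p-values below measure only the spread between these summed libraries, which may be technical.

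Run 1 held 4702 barcodes with 25236411 unique molecular identifiers (UMIs, each 1 captured transcript molecule), and run 2 held 614 barcodes with 6946744. The median was 4044 UMIs per barcode in run 1 and 8861 in run 2, and 0 kept barcodes were in both. After filters, 3598 of 4347 cells in run 1 and 415 of 556 in run 2 met exactly 1 of 8 gates on marker UMIs. Those gates named leucophore-like (white), xanthophore-like (yellow to orange), iridophore-like (reflective) and melanophore-like (dark) pigment cells, and keratinocyte-like, fibroblast-like, macrophage-like, and T or NK cell-like (lymphoid) cells. UMIs were summed over the cells of a class in a run, and the 11 sums of at least 10 cells, from 7 classes, entered 1 statistical fit. Levels are given as CPM, the UMIs of a gene for every 1000000 UMIs of the sum. They are compared across classes within a gene, and their intervals cover counting error only.

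The sums were uneven. Leucophore-like cells numbered 19 in run 1 and 201 in run 2, keratinocyte-like cells 777 and 116, fibroblast-like cells 235 and 45, and T or NK cell-like cells 440 and 36. The classes with a sum in run 1 alone were xanthophore-like with 2075 cells, iridophore-like with 20 cells and 42967 UMIs, and macrophage-like with 31 cells and 79541 UMIs. In the last 2 sums 1 UMI is 23.3 and 12.6 CPM. A test that involves such a class assumes that its sum varies like those of the other classes.

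Markers that the gates did not use were checked by class. Of the iridophore list, 2 such markers summed to 2071 CPM in iridophore-like cells and to at most 501 in any other sum. The 2 such markers of the macrophage list summed to 17073 CPM in macrophage-like cells and to at most 2660 elsewhere, and those of the fibroblast list to 313 and 216 in fibroblast-like cells and to at most 93.1 elsewhere. The 11 such markers of the keratinocyte list went against the label: they summed to 5179 and 5114 CPM in keratinocyte-like cells and to 6217 and 5621 in fibroblast-like cells, so that class rests on its gate genes epcam and krt5. For the leucophore-like, xanthophore-like and lymphoid gates every matched marker was in the gate. The 4 melanophore markers outside the gate summed to 607 and 563 CPM in leucophore-like cells and to 396 in xanthophore-like cells, against at most 12.6 in the other sums. The iridophore-like sum, at 19061 CPM of its own list, also held 1280 of the leucophore list, where 6 of 7 markers were at 0. It held 908 of the xanthophore list, 977 of the fibroblast list and 163 of the T or NK cell list. The part of these and of the melanophore markers in the results below was not tested.

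All 59 members together made up a similar order of transcripts in every class. Their summed level was 1861 CPM in run 1 and 1971 in run 2 of leucophore-like cells, 1597 in xanthophore-like cells and 1955 in iridophore-like cells. Keratinocyte-like cells had 2867 and 2175, fibroblast-like cells 1740 and 1775, macrophage-like cells 2552, and the T or NK cell-like class 1198 and 928. The T or NK cell-like sums were thus the lowest, and the exact Poisson 95% interval of the higher, 1140 to 1259, lay below that of every other class. The keratinocyte-like values of the 2 runs differed beyond counting error, with intervals of 2830 to 2905 and 2108 to 2243.

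**Figure D1:**
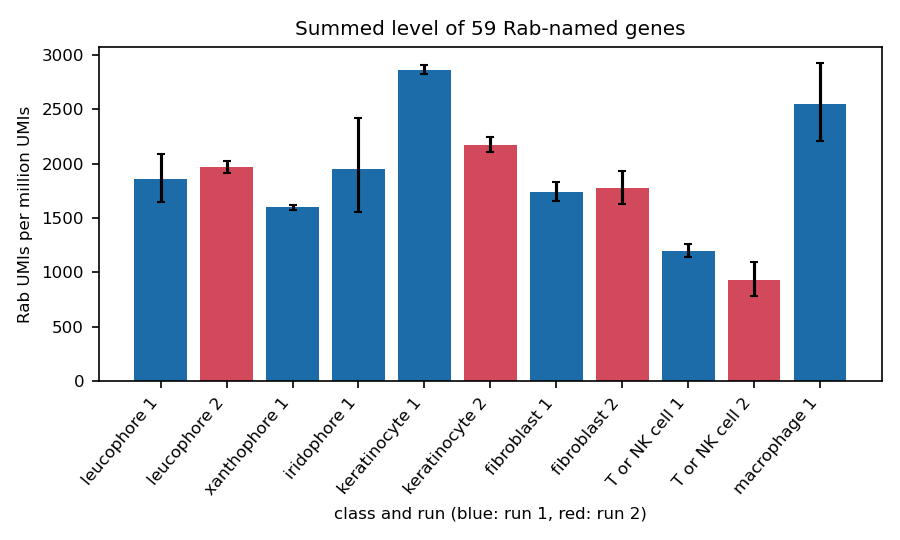
Summed level of the 59 Rab-named genes, in CPM (UMIs per 1000000 UMIs), for each class and run, with exact Poisson 95% intervals. The T or NK cell-like bars are lowest at 1198 and 928, and the keratinocyte-like bar of run 1 is highest at 2867.

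**Figure D2:**
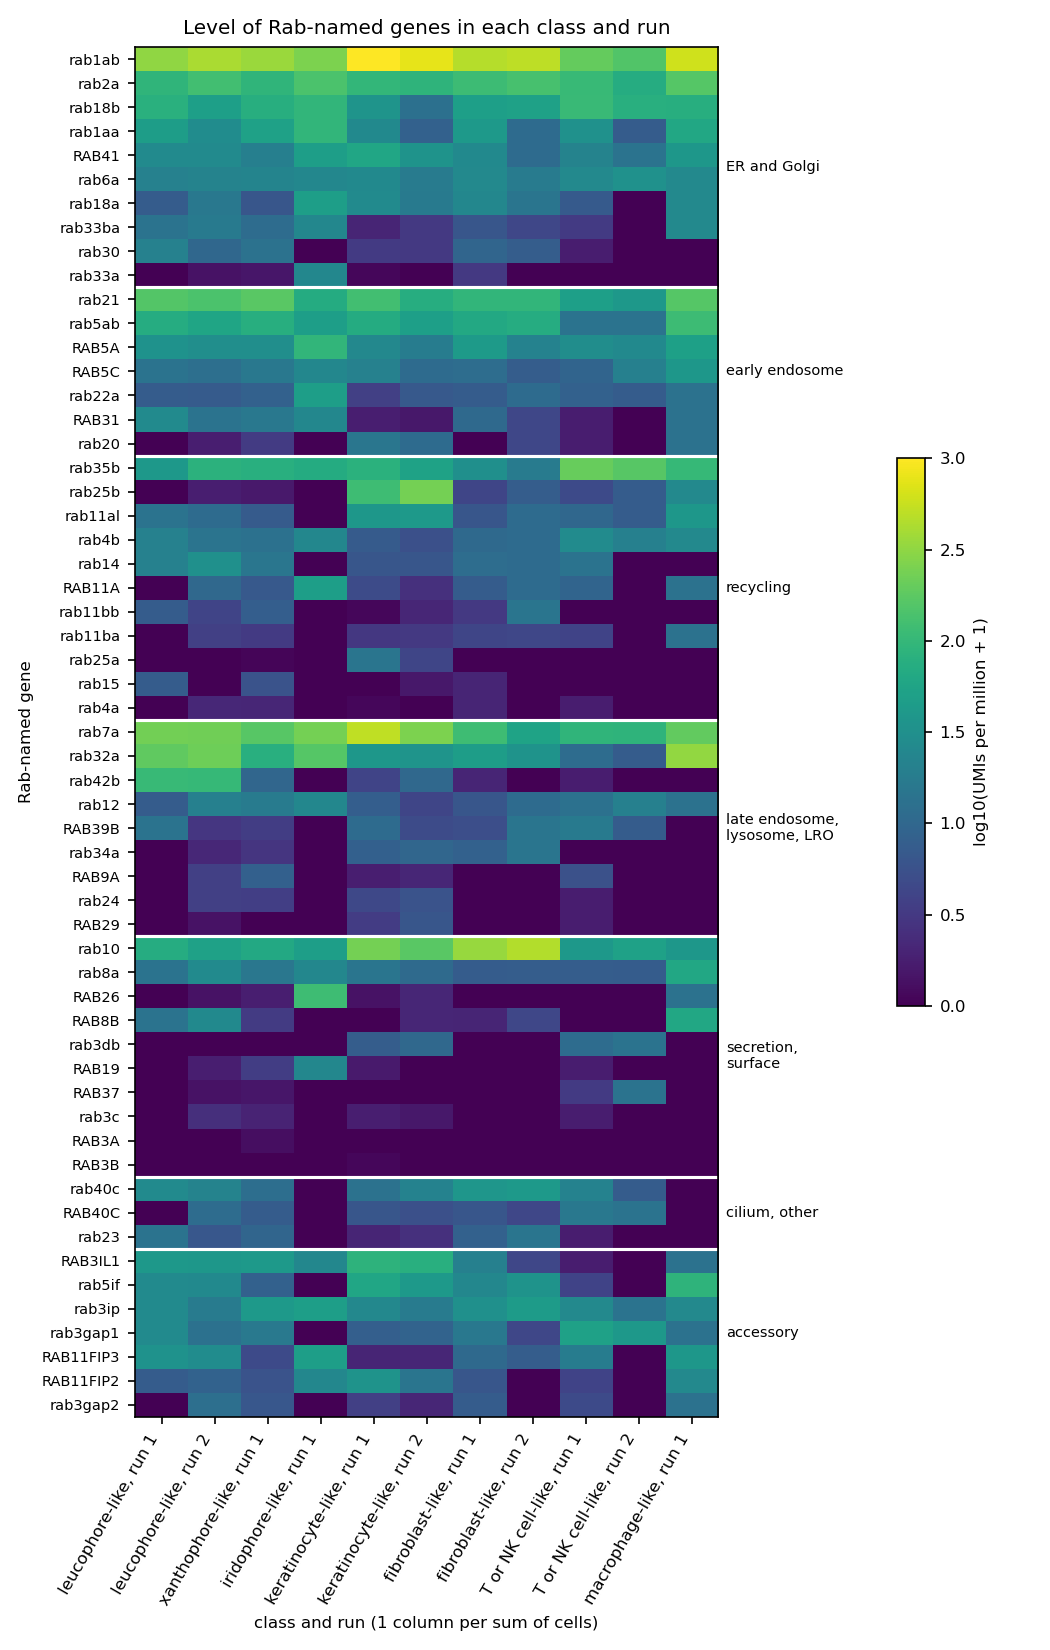
Level of the 57 members with at least 1 UMI, as the log10 of the CPM plus 1, in the 11 sums, grouped by compartment (LRO: lysosome-related organelle) and ordered by mean level. Rows such as rab2a and rab6a have similar colours in every column, while rab42b, rab25b and RAB26 are bright in the columns of 1 class.

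Members were called shared where their level was at least 10 CPM in every sum and the highest class mean was under 4-fold the lowest. In the iridophore-like and macrophage-like sums a single UMI meets the limit of 10 CPM. By that rule 6 members were shared, 5 GTPase genes and rab3ip, while 725 of the 12246 features tested were shared, or 5.92%. Among features with at least 10 CPM in every sum the rule took 46.2% of all features and 6 of 12 members. Of the 59 members, 19 had a UMI in every sum, and rab42a and rab6bb had 0 UMIs in the 11 sums.

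Of the shared members, 4 belong to the endoplasmic reticulum and Golgi. Rab2a, which acts between the endoplasmic reticulum and the Golgi, was at 91.4 and 123 CPM in leucophore-like cells, 91.0 in xanthophore-like, 140 in iridophore-like, 96.9 and 89.5 in keratinocyte-like, 114 and 135 in fibroblast-like, 103 and 70.4 in T or NK cell-like and 163 in macrophage-like cells. Its class means spanned 1.88-fold. Rab6a, a Golgi Rab of retrograde transport, was between 16.8 and 32.0 CPM in the 11 sums, with class means spanning 1.41-fold. It rests on 1 UMI in iridophore-like cells, 2 in macrophage-like cells and 3 in leucophore-like cells of run 1. Counts so low cannot show that its level was flat in these sums. RAB41, by name a relative of Rab6, ranged from 10.1 to 58.2 CPM, and rab18b, a Rab of the endoplasmic reticulum and lipid droplets, from 11.9 in keratinocyte-like cells of run 2 to 108 in T or NK cell-like cells of run 1. The class means of rab18b spanned 3.96-fold, just inside the limit, as did those of the early endosome Rab rab21 at 3.92-fold. Just outside the limit, and at 10 CPM or more in every sum, was RAB5A at 4.45-fold. For both rab18b and RAB5A the highest class mean was 93.1 CPM in iridophore-like cells, from 4 UMIs. Each was thus within 1 UMI of the opposite result. RAB5C, at 4.33-fold, was also at 6.75 CPM in fibroblast-like cells of run 2 and so missed both parts of the rule. The remaining shared member, rab3ip, encodes an exchange factor known in mammals to activate RAB8; it ranged from 12.8 to 46.5 CPM.

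The most abundant members by mean level were not all shared. Rab1ab, which carries cargo from the endoplasmic reticulum to the Golgi, reached 1003 and 773 CPM in keratinocyte-like cells. It was at 320 and 412 CPM in leucophore-like cells, 355 in xanthophore-like, 256 in iridophore-like, 460 and 506 in fibroblast-like, 196 and 154 in T or NK cell-like and 603 in macrophage-like cells. Both keratinocyte-like sums were above all others of the fit. Rab1ab alone made up 37.8% and 38.3% of the GTPase UMIs there, against 14.1% to 30.1% in the other sums of the fit. Outside the fit, rab1ab made up 35.6% of 135 GTPase UMIs in the 8 macrophage-like cells of run 2. It made up 0% to 23.3% in the other small sums of that run. All GTPase genes together were at 2423 CPM in those 8 cells, against 2015 in keratinocyte-like cells of run 2. The value of rab1ab in those 8 cells was thus above the 773 CPM of keratinocyte-like cells of run 2, but not beyond counting error. Its paralog rab1aa ranged from 6.40 to 93.1 CPM. Reads from near-identical paralogs may be shared, so the split between such a pair is uncertain.

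The early endosome Rab rab5ab was between 46.5 and 113 CPM in all sums except those of T or NK cell-like cells, where it was at 12.8 and 12.8. Rab21 was at 157 and 140 CPM in leucophore-like cells and 170 in xanthophore-like cells, and at 48.1 and 38.4 in T or NK cell-like cells. In both genes the T or NK cell-like values were below every other sum.

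A member was said to mark a class where it was called higher there than in the mean of the other classes and its CPM was at least 2-fold that of every other class in each run where the class had a sum. A call throughout is an adjusted p under 0.05 and a log2 fold change of at least 1 in size, by the quasi-likelihood test of edgeR, with the Benjamini-Hochberg method over all 12246 features tested. By this rule 6 of 47 tested members marked a class, where 24.2% of all features did. Leucophore-like cells were marked by rab42b, where 2.16% of all features marked them, and keratinocyte-like cells by rab25a, rab25b and RAB3IL1, where 5.37% did. RAB26 marked iridophore-like cells, beside 1.84% of all features, and RAB8B macrophage-like cells, beside 3.9%. Rab42b, rab25b and RAB3IL1 met the rule in all 21 alternative settings in which it was applied.

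Rab42b (ENSORLG00000014099), a less studied Rab, was the member that set leucophore-like cells apart. Its level was 104 CPM in run 1 (16 UMIs, exact Poisson 95% interval 59.7 to 170) and 103 in run 2 (262 UMIs, 90.7 to 116). Xanthophore-like cells had 8.81 CPM from 88 UMIs, keratinocyte-like cells 3.10 and 9.23, fibroblast-like cells 1.07 and 0, and T or NK cell-like cells 0.752 and 0. Iridophore-like and macrophage-like cells had 0 UMIs, where a floor of 3 counts is 69.8 and 37.7 CPM. Both leucophore-like sums were above every other sum, and their counting intervals overlapped those of none with a UMI. The exact interval of 0 UMIs in iridophore-like cells reaches above 69.8 CPM. It thus overlaps the leucophore-like interval of run 1, the run that holds both sums. In run 2, 104 of 201 leucophore-like cells held a rab42b UMI, against 11 of 116 keratinocyte-like cells, whose median depth was higher at 14576.5 UMIs than the 12257 of leucophore-like cells. The 6 melanophore-like cells of run 2 held 0 rab42b UMIs, where a floor of 3 counts is 89.7 CPM. The exact interval of a count of 0 reaches higher, so their level could not be told apart from that of leucophore-like cells.

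The difference between leucophore-like and all other classes was called for rab42b (adjusted p = 2.62e-12, edgeR's quasi-likelihood test). No fold is given for that contrast, since classes with 0 UMIs enter it. Rab42b passed the filter on low counts only through its leucophore-like sums, and it met the rule for leucophore-like cells without that filter too. Within run 1 the ratio of leucophore-like to xanthophore-like cells was 11.9 (exact 95% interval 6.50 to 20.4), and within run 2 the ratio to keratinocyte-like cells, the next highest class, was 11.1 (6.83 to 19.4).

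Between leucophore-like and xanthophore-like cells, the main pair of pigment classes, few members were called, and few of all features were. Of 47 tested, 2 were called higher in leucophore-like cells, where 3.46% of all features were, and 0 were called lower, where 4.43% of all features were. Unadjusted, 5 were higher and 0 lower at a p under 0.05, and the share of all features at that p is not given here. DESeq2's Wald test called 2 higher, RAB11FIP3 and rab32a, and 0 lower, so rab42b was not among its calls. The median log2 fold change was 0.27 over the members and -0.01 over all features.

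Rab42b was 3.03 higher on the log2 scale (SE 0.75, adjusted p = 0.00157, edgeR). DESeq2's Wald test gave it an adjusted p of 0.336, and without the leucophore-like sum of run 1 edgeR gave 2.27 with an adjusted p of 0.262. RAB11FIP3, an effector that binds Rab11 and Arf6 in mammals, was 3.30 higher (SE 0.88, adjusted p = 0.00414, edgeR). It was at 32.6 CPM (5 UMIs) and 27.5 (70 UMIs) in leucophore-like cells and at 3.70 (37 UMIs) in xanthophore-like cells. RAB11FIP3 was not particular to leucophore-like cells, with 46.5 CPM in iridophore-like cells (2 UMIs), 37.7 in macrophage-like cells (3 UMIs), and 17.3 and 0 in T or NK cell-like cells. It missed the threshold without the leucophore-like sum of run 2 (adjusted p = 0.259) and with leucophore-like, xanthophore-like and keratinocyte-like sums alone (0.0708).

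**Figure D3:**
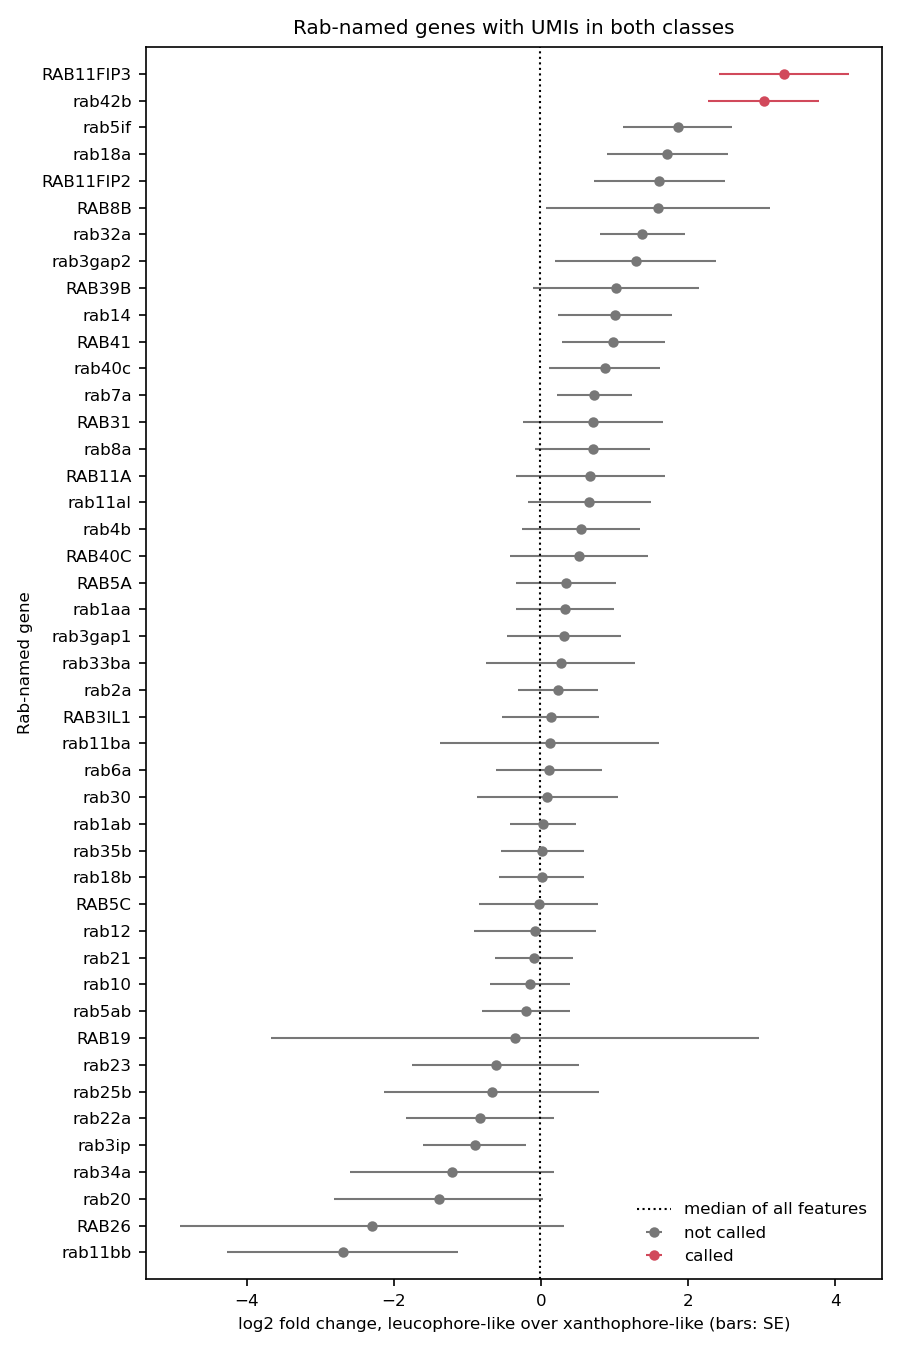
Log2 fold change with its SE of leucophore-like over xanthophore-like cells for the tested members with UMIs in both classes. RAB11FIP3 at 3.30 and rab42b at 3.03 are called, and most others lie within 1 SE to 2 SE of the median of all features at -0.01.

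Rab32a (ENSORLG00000014163), the medaka gene named for the mammalian melanosome Rab and the rab32 paralog in the files, was high in most pigment classes and in macrophage-like cells. It was at 183 and 219 CPM in leucophore-like cells, 163 in iridophore-like cells (7 UMIs) and 76.6 in xanthophore-like cells. The highest value of the fit was 327 CPM in macrophage-like cells of run 1 (26 UMIs, 214 to 479). Below these were keratinocyte-like cells at 37.8 and 34.7, fibroblast-like cells at 45.9 and 33.7, and T or NK cell-like cells at 10.5 and 6.40. Every pigment sum was above every keratinocyte-like, fibroblast-like and T or NK cell-like sum.

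Sums too small for the fit gave rab32a 299 CPM in the 6 melanophore-like cells of run 2 (10 UMIs, 143 to 550), of which 60% came from 1 cell, and 215 CPM in the 8 macrophage-like cells of run 2 (12 UMIs, 111 to 376). In run 1 the leucophore-like level was 2.39 times that of xanthophore-like cells (1.58 to 3.48). The fitted difference of 1.38 on the log2 scale (SE 0.58) missed the threshold (adjusted p = 0.15, edgeR), while DESeq2's Wald test called it (1.46, adjusted p = 0.0156). It was also called when the edgeR fit used DESeq2 size factors (adjusted p = 0.0425) or total UMIs (0.0446) in place of edgeR's scaling by the trimmed mean of M values (TMM).

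**Figure D4:**
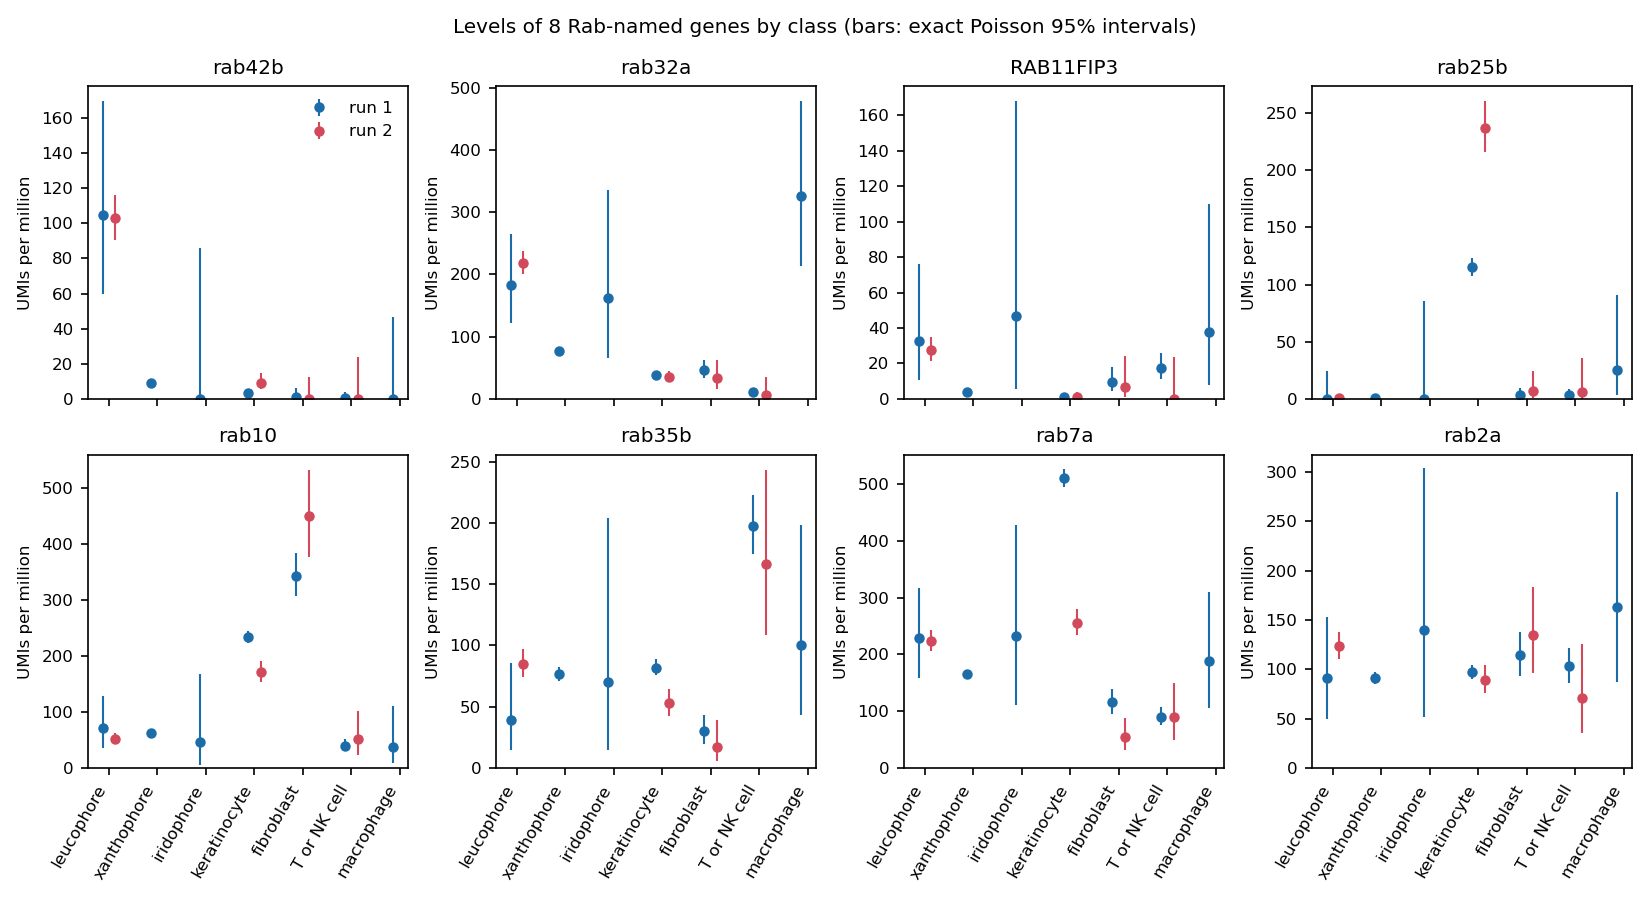
Levels of 8 members in CPM by class, run 1 in blue and run 2 in red, with exact Poisson 95% intervals. The leucophore-like points of rab42b are at 104 and 103, the macrophage-like point of rab32a is at 327, and rab2a has overlapping intervals across most classes.

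The other late endosome and lysosome members had other patterns. Rab7a, which drives fusion with lysosomes, was at 511 and 256 CPM in keratinocyte-like cells, 229 and 224 in leucophore-like, 165 in xanthophore-like, 233 in iridophore-like, 189 in macrophage-like, 115 and 54.0 in fibroblast-like and 90.3 and 89.6 in T or NK cell-like cells. All pigment sums were above all fibroblast-like and T or NK cell-like sums, and below those of keratinocyte-like cells. Rab12 was between 3.26 and 23.3 CPM in the 11 sums. RAB9A, rab24 and RAB29 did not pass the filter on low counts in the fit of all classes.

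Across pigment classes together, 1 of 47 members was called higher than in the mean of the non-pigment classes, where 7.41% of all features were, and 2 were called lower, where 6.17% were. Rab32a was the higher (log2 fold change 1.14, SE 0.37, adjusted p = 0.0167, edgeR), and rab10 was lower (-1.34, SE 0.46, adjusted p = 0.0288). Rab25b was the other (adjusted p = 3.07e-05), with 0 to 0.785 CPM in the 4 pigment sums. The low level was not particular to pigment classes. Fibroblast-like sums held 3 and 2 rab25b UMIs and T or NK cell-like sums 5 and 1, against 891 and 437 in keratinocyte-like sums. The median over all features was -0.25, and 0.08 without TMM scaling. The count depended on the shallow iridophore-like sum: without it, 7 members were called higher (rab14, rab30, rab42b, RAB31, rab32a, RAB3IL1 and RAB8B) and rab25b alone lower. The share of all features called without that sum is not given here, so this count cannot be set against it. DESeq2's Wald test called rab32a and RAB31 higher and the same 2 genes lower. The rab32a difference missed the threshold without a filter on low counts (0.93, adjusted p = 0.129), without the leucophore-like sum of run 2 (1.05, 0.0732) and with leucophore-like, xanthophore-like and keratinocyte-like sums alone (0.94, 0.0520). RAB3IL1 was called lower with those 3 classes alone, where keratinocyte-like cells were the only non-pigment class.

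RAB31, an endosomal Rab near Rab22a, was at 26.1 and 12.9 CPM in leucophore-like cells, 14.8 in xanthophore-like and 23.3 in iridophore-like cells (1 UMI). It was at 0.776 and 0.543 in keratinocyte-like cells and 0.752 and 0 in T or NK cell-like cells, while fibroblast-like cells had 9.61 and 3.37 and macrophage-like cells 12.6 (1 UMI). All pigment sums were above the non-pigment sums, but its fitted difference of 2.41 (SE 1.06) had an adjusted p of 0.127 (edgeR).

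Rab10, a Rab of delivery to the cell surface, was highest in fibroblast-like cells at 343 and 449 CPM and next in keratinocyte-like cells at 233 and 172. Leucophore-like cells had 71.8 and 51.8, xanthophore-like 62.9, iridophore-like 46.5 (2 UMIs), T or NK cell-like 39.1 and 51.2, and macrophage-like cells 37.7 (3 UMIs). The pigment sums thus lay in the range of 37.7 to 71.8 that also held both immune classes. The lower level of rab10 in pigment classes missed the threshold under 6 alternatives, among them leaving out the iridophore-like sum (-0.86, adjusted p = 0.0878) and total UMIs as scaling (-0.95, adjusted p = 0.115).

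Both rab25 genes, recycling Rabs related to Rab11 and known from epithelia, marked keratinocyte-like cells. Rab25b (ENSORLG00000016135) was at 115 CPM in run 1 (891 UMIs, 108 to 123) and 237 in run 2 (437 UMIs, 215 to 260), so the runs differed beyond counting error. Elsewhere it ranged from 0 to 6.75 CPM, apart from 25.1 in macrophage-like cells, which rests on 2 UMIs. Rab25a (ENSORLG00000012158) was at 13.6 CPM (105 UMIs) and 3.26 (6 UMIs) in keratinocyte-like cells, and the other 9 sums together held 1 UMI. Rab25a passed the filter on low counts only through its keratinocyte-like sum of run 1, so it was tested only through the class it marks. Rab25a met the rule in 14 of 21 alternative settings, among them the one without that filter. In the other 7, among them DESeq2's Wald test and leaving out either keratinocyte-like sum, it did not pass the filter on low counts or had no adjusted p.

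RAB3IL1 (ENSORLG00000006127) encodes an exchange factor for RAB3A and RAB8 in mammals. It was at 87.1 and 78.1 CPM in keratinocyte-like cells, 39.2 and 37.7 in leucophore-like, 40.7 in xanthophore-like and 23.3 in iridophore-like cells (1 UMI), and at 0.752 and 0 in T or NK cell-like cells. Keratinocyte-like cells were just past the 2-fold limit, with a ratio of 2.14 (1.89 to 2.42) to xanthophore-like cells in run 1 and of 2.08 (1.59 to 2.71) to leucophore-like cells in run 2. It was also called higher against the other classes in leucophore-like (1.71, SE 0.62, adjusted p = 0.0421) and xanthophore-like cells (1.56, SE 0.58, adjusted p = 0.0428), and lower in T or NK cell-like cells (-4.82, SE 1.18, adjusted p = 0.000488, edgeR). With DESeq2 size factors in the edgeR fit neither the leucophore-like (adjusted p = 0.0634) nor the xanthophore-like difference (0.0786) was called, and with total UMIs the xanthophore-like one was not (0.0740).

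The iridophore-like and macrophage-like marks rest on few molecules. RAB26, a Rab of secretory granules, had 5 UMIs in iridophore-like cells of run 1 (116 CPM, 37.8 to 272), of which 60% were in 1 cell. The single iridophore-like cell of run 2 held 6 RAB26 UMIs and stayed out of the fit. All other sums of the fit were at 12.6 CPM or less (1 UMI in macrophage-like cells). RAB8B, a paralog of the surface delivery Rab rab8a, had 5 UMIs in macrophage-like cells of run 1 (62.9 CPM, 20.4 to 147) and 0 UMIs in the 8 cells of run 2. Its leucophore-like values were 13.1 (2 UMIs) and 25.9 CPM (66 UMIs, 20.03 to 32.9), and the within-run ratio of macrophage-like to leucophore-like cells of 4.81 had an interval of 0.788 to 50.5. Without the macrophage-like sum RAB8B met the rule for leucophore-like cells instead. DESeq2's Wald test gave neither RAB26 nor RAB8B an adjusted p.

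Each class was also compared with the mean of the other classes. Keratinocyte-like cells had 18 members higher, where 26.8% of all features were, and 2 lower, where 3.37% were. With total UMIs as scaling the split was 12 higher and 8 lower, beside 14.7% and 9.59% of all features. The median log2 fold change over all features was 0.85 with TMM scaling and -0.03 without it. Called higher under both scalings were 12 members, among them rab1ab (2.44, SE 0.25, then 1.36), rab7a (2.48, SE 0.28, then 1.41) and rab10 (2.63, SE 0.33, then 1.57). The others were rab25a, rab25b, RAB3IL1, rab34a, rab20, rab11al, RAB11FIP2, rab3db and rab5if. Some of these had a higher class mean elsewhere. For rab5if, RAB11FIP2 and rab20 it was that of macrophage-like cells (88.0, 25.1 and 12.6 CPM). For rab10 and rab34a it was that of fibroblast-like cells (396 and 10.5 CPM), and for rab3db that of T or NK cell-like cells (11.7 CPM). Rab21, rab5ab, RAB41, rab18a, rab40c and RAB39B were not called with total UMIs. RAB11FIP3 (-2.87, SE 0.72) and RAB31 (-2.41, SE 0.94) were called lower under both.

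Leucophore-like cells had 5 members called higher, where 11.8% of all features were, and 0 lower, where 1.69% were. These were rab42b, rab32a (1.82, SE 0.39, adjusted p = 4.47e-05), RAB11FIP3 (2.03, SE 0.67), RAB3IL1 and rab14, a Rab between Golgi and endosomes at 19.6 and 31.4 CPM there. Xanthophore-like cells had 2 higher, RAB3IL1 and rab11bb, where 15.2% of all features were, and 0 lower, where 1.47% were. Rab11bb was at 6.81 CPM in xanthophore-like cells but at 13.5 in fibroblast-like cells of run 2 (4 UMIs). Iridophore-like cells had RAB26 higher, beside 3.02% of all features, and rab1ab lower (-1.82, SE 0.53, adjusted p = 0.0158, edgeR), beside 1.66%. The median log2 fold change over all features in that contrast was -1.86, so the rab1ab value was near that of a typical feature. With total UMIs rab1ab was not called there. At an unadjusted p under 0.05 the leucophore-like counts were 10 higher against 0 lower, and those of xanthophore-like cells 7 against 2. DESeq2's Wald test gave 2 against 1 for leucophore-like and 0 against 1 for xanthophore-like cells. The shares of all features for these unadjusted and DESeq2 counts are not given here, so the counts cannot be set against them. In edgeR the median log2 fold change over all features was 0.79 in both contrasts. Over the members it was lower, at 0.68 for leucophore-like and 0.29 for xanthophore-like cells.

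Fibroblast-like cells had 3 members higher, rab10 (2.76, SE 0.34), rab40c and rab34a, where 19.5% of all features were, and 2 lower, rab35b (-1.72, SE 0.47) and rab7a (-1.01, SE 0.36), where 1.44% were. Macrophage-like cells had 2 higher, rab32a (1.62, SE 0.52, adjusted p = 0.0278) and RAB8B, where 5.78% were, and 0 lower, where 2.34% were. Unadjusted, macrophage-like cells had 3 higher and 1 lower, and DESeq2's Wald test called 1 higher and 0 lower. The shares of all features for these 2 settings are not given here. The median log2 fold change in edgeR was -1.39 over all features and -0.37 over the members.

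T or NK cell-like cells had 6 members higher, where 12.8% of all features were, and 3 lower, where 5.18% were. With total UMIs the split was 3 higher and 7 lower, beside 8.70% and 7.89% of all features. Rab35b, a recycling Rab of the plasma membrane, was at 198 and 166 CPM there, against 16.9 to 101 in the other sums (2.05, SE 0.35, adjusted p = 1.02e-07). Rab3gap1, a subunit of the complex that inactivates Rab3 and activates Rab18, was at 51.2 and 38.4 CPM, against 0 to 26.1 elsewhere. Both were called higher with total UMIs too. Called lower under both scalings were rab32a (-2.87, SE 0.54), rab5ab (-1.89, SE 0.57) and RAB3IL1.

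Paralogs divided their UMIs differently between classes, given here as shares with exact binomial 95% intervals. RAB8B made up 49.3% of the 134 UMIs of rab8a and RAB8B in leucophore-like cells of run 2 (40.5% to 58.0%) and 2 of 4 UMIs in run 1. It made up 13.8% of 167 in xanthophore-like cells (8.90% to 19.9%) and 0 of 106 in keratinocyte-like cells of run 1 (up to 3.42%). The xanthophore-like share is of run 1, where the leucophore-like interval was 6.76% to 93.2%, so no difference between these 2 classes was detectable within a run. In run 2 keratinocyte-like cells had 2 of 20 UMIs (1.23% to 31.7%). The leucophore-like share of run 2 was thus above that of keratinocyte-like cells of the same run beyond counting error. It was not set apart from that of macrophage-like cells, which had 5 of 10 UMIs in run 1 (18.7% to 81.3%).

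Of the rab18a and rab18b UMIs, rab18a made up 42.6% of 472 (38.1% to 47.2%) and 57.7% of 52 (43.2% to 71.3%) in keratinocyte-like cells. In fibroblast-like cells of run 1 rab18a made up 32.8% of 67 (21.8% to 45.4%), an interval that overlaps the keratinocyte-like one of that run. T or NK cell-like cells of run 1 were at 5.30% of 151. Rab18a made up 6.64% of 813 in xanthophore-like cells (5.03% to 8.58%) and 23.3% of 163 in leucophore-like cells of run 2 (17.1% to 30.6%). In leucophore-like cells of run 1, the run of the xanthophore-like sum, it was 1 of 13 UMIs (0.195% to 36.0%), so no difference from xanthophore-like cells was detectable within a run. Of the rab11 family, rab11al made up 86.1% of 337 UMIs and 89.4% of 85 in keratinocyte-like cells, and 29.4% of 211 in xanthophore-like cells (23.3% to 36.0%), where rab11bb, RAB11A and rab11ba held the rest. RAB5A made up 57.6% of 66 rab5 UMIs in T or NK cell-like cells of run 1 (44.8% to 69.7%), against 24.9% of 1193 in xanthophore-like cells (22.5% to 27.5%).

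Keratinocyte-like cells were then divided, after the data had been seen, into cells with krt4, a keratin of outer epidermal layers in fish, and no tp63 (112 cells in run 1 and 16 in run 2), and cells with tp63, a transcription factor of basal keratinocytes, and no krt4 (276 and 38). Cells with both genes or with neither, the rest of the 777 and 116 keratinocyte-like cells, were in no group. The edgeR fit on these 4 sums had 1 residual degree of freedom and tested 27 members among 5133 features. Higher in krt4 cells were 3 members, where 15.4% of all features were, and lower were 2, where 11.7% were. RAB29 and rab25a passed the filter on low counts only through their krt4 sums, and rab25b only through its tp63 sums. These genes kept their calls without that filter.

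The 2 rab25 paralogs went in opposite directions. Rab25a was at 58.8 and 17.7 CPM in krt4 cells and at 2.69 and 1.37 in tp63 cells (log2 fold change 3.88, SE 0.67, adjusted p = 0.00173). Rab25b was at 10.6 and 4.42 CPM in krt4 cells and at 110 and 203 in tp63 cells (-4.30, SE 0.52, adjusted p = 0.000217). Of the 891 and 437 rab25b UMIs of keratinocyte-like cells, tp63 cells held 366 and 148 and krt4 cells 11 and 1. Most were thus in cells of neither group, whose level was not tested. In each run the krt4 cells were above the tp63 cells for rab25a and below them for rab25b, although rab25a in run 2 rests on 4 UMIs against 1.

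RAB41, shared across classes, was at 212 and 146 CPM in krt4 cells and at 19.2 and 11 in tp63 cells (3.11, SE 0.40, adjusted p = 0.000298). Its ratio was 11.1 in run 1 (8.34 to 14.9) and 13.3 in run 2 (6.004 to 33.2). RAB29, a Rab that recruits the kinase LRRK2 to lysosomes in mammals, had 19 and 10 UMIs in krt4 cells (18.3 and 44.2 CPM) and 0 in tp63 cells. Its krt4 levels were 20.4-fold and 10.7-fold a floor of 3 counts in the tp63 sums. With counting error in both sums of a run, the exact 95% lower limits of the ratio of krt4 to tp63 cells were 15.02 and 7.20. Rab10 was at 122 and 155 CPM in krt4 cells and 273 and 191 in tp63 cells (-1.24, SE 0.33, adjusted p = 0.0189). The rab10 difference was clear in run 1 (ratio of tp63 to krt4 cells 2.23, 1.85 to 2.71) and within counting error in run 2 (1.24, 0.848 to 1.85), and without the run in the fit its adjusted p was 0.118. The abundant rab1ab (1023 and 707 CPM in krt4 cells, 924 and 739 in tp63 cells) was not called.

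**Figure D5:**
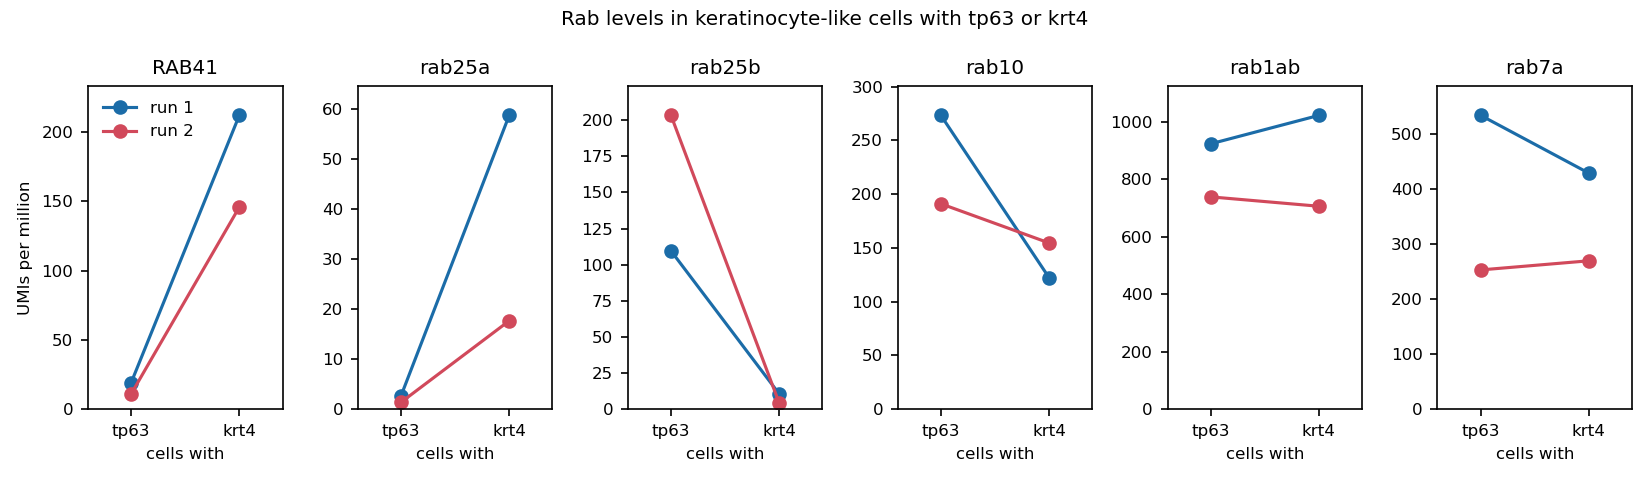
Levels of 6 members in CPM in keratinocyte-like cells with tp63 and no krt4, or with krt4 and no tp63, with a line for each run. RAB41 and rab25a rise to 212 and 58.8 in krt4 cells of run 1 while rab25b falls to 10.6.

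Genes that load, activate, inactivate or read out Rabs were taken from a list of 172, of which 114 were found beside the members and 98 tested. Between leucophore-like and xanthophore-like cells 3 were called higher and 1 lower, beside 3.46% and 4.43% of all features, with a median log2 fold change of 0.03 against -0.01 over all features. TBC1D9, named as a GTPase-activating protein, was at 496 and 652 CPM in leucophore-like cells and 62.9 in xanthophore-like cells (2.85, SE 0.56). It was also at 323 and 269 CPM in T or NK cell-like and 163 in macrophage-like cells. Mical1, an actin oxidase that binds Rabs, was at 45.7 and 74.5 against 15.01 (2.12, SE 0.67). It was not particular to leucophore-like cells, with 63.1 and 39.1 CPM in keratinocyte-like, 30.1 and 51.2 in T or NK cell-like and 37.7 in macrophage-like cells. Grtp1a was at 26.1 and 14.5 CPM with 0 UMIs in xanthophore-like cells.

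Between pigment and non-pigment classes 11 of the 98 were called higher and 3 lower, beside 7.41% and 6.17% of all features, with a median of 0.24 against -0.25 over all features. Sgsm3, named as a GTPase-activating protein, was at 209 and 83.6 in leucophore-like and 294 in xanthophore-like cells, against at most 13.5 in the non-pigment sums. In iridophore-like cells it was at 23.3 CPM, which is 1 UMI. Vps41, a subunit of the tether that acts with Rab7 on lysosomes, was at 58.8 and 21.2 CPM in leucophore-like, 15.9 in xanthophore-like and 46.5 in iridophore-like cells (2 UMIs), against 0 to 12.8 in the non-pigment sums. The 0 was in macrophage-like cells, where a floor of 3 counts is 37.7 CPM. The early endosome effector appl2 was at 9.02 to 23.3 CPM in the pigment sums, the highest being 1 UMI in iridophore-like cells, and at 0 to 13.5 in the others. Micall2b, an effector of Rab8 and Rab13 family members at junctions, was called lower, at 0 to 32.6 CPM in the pigment sums. It was at 487 and 329 CPM in keratinocyte-like, 226 in macrophage-like and 72.6 and 57.4 in fibroblast-like cells, but at 0.752 and 0 in T or NK cell-like cells.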

How the data were processed

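Each run has a deposited matrix of UMI counts by feature and barcode, made with Cell Ranger 7.1.0 per the submitters' processing notes. Genome build and annotation: not given in the sources used here, so no positions or sequences are printed. Gene names are those of the files. Barcodes with at least 500 UMIs, 300 genes and at most 20% mitochondrial UMIs were kept (4503 of 4702 and 577 of 614). Scrublet's automatic threshold called 3 and 1 doublets, so the top 4% of scores, 156 and 21 barcodes, were removed. A cell entered a class when it met the UMI minimum (2 to 20, by class) of that gate alone; 532 and 69 cells met none and 217 and 72 met more than 1.

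UMI counts were summed per class and run and tested with edgeR 4.0.16 (R 4.3.3; TMM scaling, filterByExpr, class and run as terms, 3 residual degrees of freedom). SE is the absolute log2 fold change divided by the square root of F. DESeq2 1.42.0 was an alternative. A fitted fold change that involves a class with 0 UMIs depends on the prior count and is mostly not printed. TMM factors ranged from 0.570 to 2.04. The fit was tested on simulated sums with known changes. Members, lists and roles were chosen with earlier results of these data known, and the gate minimums, the marker subsets in the gates and the keratinocyte division were set after the data were seen. Named were members that mark a class, the 10 of highest mean CPM, called members of the first 2 comparisons, rab32 paralogs and up to 5 called listed genes per comparison, of which 2 are not reported here; other members named beside these were picked after their values were seen. Cells in no class are not analysed here.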

Additional observations from a re-analysis of the deposited data

How the results depend on the processing

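Of 233 checks of single members under alternative settings, 218 kept their call, 15 lost it and 0 reversed. Settings in which a member was not tested are left out of these: RAB26, RAB8B and rab25a kept their mark in only 17, 17 and 14 of 21 settings. The 2 members called higher in leucophore-like than in xanthophore-like cells became 1 with at least 20 cells per sum and 1 with leucophore-like, xanthophore-like and keratinocyte-like sums alone, ranged from 1 to 2 when each sum was left out in turn, and were 3 (rab32a added) with DESeq2 size factors or total UMIs. For pigment against non-pigment classes, the 1 member called higher became 2 under DESeq2's Wald test, 0 without a filter on low counts, 7 with those 3 classes alone, rab32a not among them, and 7 without the iridophore-like and macrophage-like sums, and ranged from 0 to 7 with a sum left out. The 2 called lower became 1 with total UMIs, 1 with doubled gate minimums and 16 with 3 classes alone, and ranged from 1 to 4 with a sum left out. With 3 classes alone, keratinocyte-like cells are the only non-pigment class, so that setting is a different comparison. The shares of all features called in these settings are not given here, so these counts cannot be set against them. The 6 class-marking members became 3 under DESeq2's Wald test, 10 with at least 20 cells per sum and 13 with TMM-scaled CPM, and ranged from 4 to 10 with a sum left out. The 6 shared members became 2 at 20 CPM and 3 with doubled gate minimums; they were 9 with a 6-fold limit, 4 with a 3-fold limit and 7, RAB5A added, without the shallow sums. Without the run as a replicate block, the 2 members lower in krt4 cells became 1. The summed levels stayed within their counting intervals. The settings with total UMIs, without both shallow sums and with TMM-scaled CPM, and all on keratinocyte division, were added after the data were seen. The cause of these changes was not tested. Depth limits the iridophore-like and macrophage-like sums most, where a floor of 3 counts is 69.8 and 37.7 CPM.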
